A study of Mus musculus with 27 samples.

Results

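Hspa2, Hspa1l, Hspa4l, Hsp90aa1 and Hsph1 are heat shock chaperone genes, grouped here as chaperones of male germ cells. They were taken by gene name from the long RNA sense table, and all 5 were found among its 55358 genes. Long RNA, depleted of ribosomal RNA and kept by strand, was sequenced in 18 mouse libraries from sorted spermatids (1n) and spermatocytes (4n) of the testis, with 3 libraries for each population of 3 genotypes. WT animals carry untagged MIWI, and in the knock-in lines Strep1 and Strep2 MIWI, the PIWI protein of the gene Piwil1, carries a Strep II tag near its N-terminus. The lines differ in where the tag was inserted. Strep1 is labelled RP68 and Strep2 RP85, whereas the protocol speaks of RP85 and RP86, so which insertion each line carries is not known. Small RNA bound to MIWI was sequenced in 5 libraries from adult Strep1 testes. No strain background, number of animals or age of the sorted testes was given, so p-values measure the spread between libraries, which may be technical in part.

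Heat shock proteins of the HSP70 class bind exposed hydrophobic stretches of client proteins in a cycle driven by ATP. J-domain proteins start the cycle, and nucleotide exchange factors, among them the HSP110 class, end it by releasing ADP. HSP90 takes over partly folded clients such as kinases and receptors, together with co-chaperones. Most tissues raise these genes on heat or protein damage through heat shock factors that bind repeated GAA units, whereas the male germ line makes several of them as part of its normal programme. HSPA2 is the HSP70 of meiotic cells, and mouse spermatocytes without it fail to leave meiotic prophase. HSPA1L is a close relative made in spermatids. HSPA4L and HSPH1 are HSP110 proteins, and HSP90AA1 is the cytosolic HSP90 form that mouse spermatocytes need to pass prophase.

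The sorted populations carried the markers of their labels. The summed level of 8 spermatid markers was 3419 to 6196 RPM (read counts scaled to library size, as deposited) in 1n libraries and 106 to 206 RPM in 4n libraries, and that of 8 spermatocyte markers was 286 to 364 RPM in 1n and 1015 to 1523 RPM in 4n libraries. The 6 spermatogonium markers summed to 8.92 to 12.5 RPM in 1n and 26.0 to 41.0 RPM in 4n libraries, with Id4 at up to 34.9 RPM, and their part in the results was not tested. Of the somatic lists, 8 Sertoli markers summed to at most 9.74 RPM in any library and 6 Leydig markers to at most 3.67 RPM. The 6 peritubular and endothelial markers summed to 12.5 to 17.9 RPM in 1n and 2.98 to 4.40 RPM in 4n libraries, mostly from Vwf, and 4 of them were at or under 1 RPM in every library of either population. The 7 macrophage and blood markers summed to 5.03 to 6.03 RPM in 1n and 0.718 to 1.28 RPM in 4n libraries. No marker was at 0 throughout. Depth, estimated from what 1 read is worth, was 33.0 to 63.2 M reads for long RNA. Library names carry 1 series number for the 1n libraries of WT and Strep2 and another for the remaining libraries, so that 1n against 4n lies within one series only in Strep1, while in WT and Strep2 population and series cannot be told apart.

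Promoter sequences are shown because heat shock genes are usually recognised by the elements in front of them. RefSeq windows of the build GRCm38.p6, from 250 bases before to 50 bases after the annotated start, were at hand for 4 of the 5 genes, Hsp90aa1 having none. Both strands were searched for the core heat shock element, GAANNTTC or TTCNNGAA, which 15.1% of 32851 windows of the same length held, and for CCAAT, which 37.4% held. Capitals mark these matches, 8 bases or longer for the heat shock element and 5 bases for CCAAT or its reverse complement. The window of Hspa2 is chr12:76404120-76404419 on the plus strand, that of Hspa1l chr17:34972453-34972752 on the plus strand, that of Hsph1 chr5:149636287-149636586 on the minus strand, and that of the stress-inducible Hspa1a, shown as the neighbour of Hspa1l, chr17:34972107-34972406 on the minus strand.
Hspa2: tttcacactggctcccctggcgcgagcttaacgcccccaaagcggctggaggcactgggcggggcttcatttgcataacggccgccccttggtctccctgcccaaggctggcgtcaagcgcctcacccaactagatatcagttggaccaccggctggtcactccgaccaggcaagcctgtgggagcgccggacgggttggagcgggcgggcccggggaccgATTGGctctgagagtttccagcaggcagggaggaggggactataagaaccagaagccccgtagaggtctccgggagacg
Hspa1l: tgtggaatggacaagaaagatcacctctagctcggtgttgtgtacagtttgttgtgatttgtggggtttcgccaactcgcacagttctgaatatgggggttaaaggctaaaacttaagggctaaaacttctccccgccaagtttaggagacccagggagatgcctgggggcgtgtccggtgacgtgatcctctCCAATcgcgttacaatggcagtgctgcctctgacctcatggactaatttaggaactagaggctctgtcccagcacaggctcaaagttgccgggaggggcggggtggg
Hsph1: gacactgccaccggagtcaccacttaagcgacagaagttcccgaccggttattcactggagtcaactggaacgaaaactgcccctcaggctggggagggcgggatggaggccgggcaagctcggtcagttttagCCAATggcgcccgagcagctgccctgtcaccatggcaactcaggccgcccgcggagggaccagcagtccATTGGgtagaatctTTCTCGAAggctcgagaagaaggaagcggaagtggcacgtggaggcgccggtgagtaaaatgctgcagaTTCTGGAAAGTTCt
Hspa1a: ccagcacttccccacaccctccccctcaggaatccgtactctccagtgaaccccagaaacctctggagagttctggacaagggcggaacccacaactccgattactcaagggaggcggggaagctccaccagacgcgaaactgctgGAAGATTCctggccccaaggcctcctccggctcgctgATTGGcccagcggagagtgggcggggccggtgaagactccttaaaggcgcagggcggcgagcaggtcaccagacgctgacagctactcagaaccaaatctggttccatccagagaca

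No heat shock element core was found in the windows of Hspa2, Hspa1l and Hspa4l. The window of Hsph1 shown held 3, of which 1 began 33 bases before the start and 2 overlapped each other after it. RefSeq gives Hsph1 another start with an overlapping window, not printed, from which the first of these elements begins 54 bases and the CCAAT matches 137 and 68 bases before the start. The windows of Hspa1a and its copy Hspa1b held 1 each, 104 bases before the start. CCAAT was matched 29 bases before the start of Hspa2, 57 bases before that of Hspa1l, and 116 and 47 bases before the start of the Hsph1 window shown, and not in the window of Hspa4l. None of the windows of the 4 genes held TATAAA, which 13.6% of all windows held, or TGACGTCA, which 1.79% held. Hspa1l and Hspa1a stand head to head, with 531 bases between their annotated starts in GRCm39, and the windows shown do not overlap but leave 46 bases between them. These matches describe the letters of the windows and not bound sites.

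Hspa1l, the spermatid HSP70, was 23.5 to 23.8 times higher in spermatids than in spermatocytes in the 3 genotypes. The gene lies at chr17:35191664-35198261 on the plus strand (GRCm39, GENCODE). In 4n cells it stood at 10.8, 13.2 and 16.9 RPM in WT, at 17.8, 10.1 and 16.8 RPM in Strep1 and at 10.5, 17.1 and 12.7 RPM in Strep2. In 1n cells the values were 366, 438 and 289 RPM in WT, 451, 347 and 346 RPM in Strep1 and 286, 386 and 330 RPM in Strep2. All 9 spermatid libraries lay far above all 9 spermatocyte libraries. The log2 fold change of 1n over 4n, on the scale log2(RPM + 0.1) after scaling of libraries, was 4.55 in WT with a standard error (SE) of 0.22 (limma across all genes, adjusted p = 3.04e-13). It was 4.57 in Strep1 (SE 0.22, limma adjusted p = 2.25e-13), whose libraries belong to one series, and 4.56 in Strep2 (SE 0.22, limma adjusted p = 2.09e-13).

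The spermatocyte level of Hspa1l moved with spermatid markers. Its mean in 4n cells was 3.89% of its mean in 1n cells, and the same share was 2.42% for the protamine gene Prm1 and 5.71% for the acrosomal gene Spaca1, the lowest and highest of the 8 spermatid markers. Among the 4n libraries the level was lowest, at 10.1 RPM, where the markers summed to 106 RPM and highest, at 17.8 RPM, where they summed to 206 RPM. Among the 1n libraries the 2 highest Hspa1l levels, 451 and 438 RPM, were found with the 2 highest marker sums, 5628 and 6196 RPM. The lowest, 286 RPM, was found with the lowest marker sum, 3419 RPM. The part of spermatids in the 4n level was not tested. In sorted bulk libraries fewer cells of a type and less RNA per cell cannot be told apart.

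**Figure D1:**
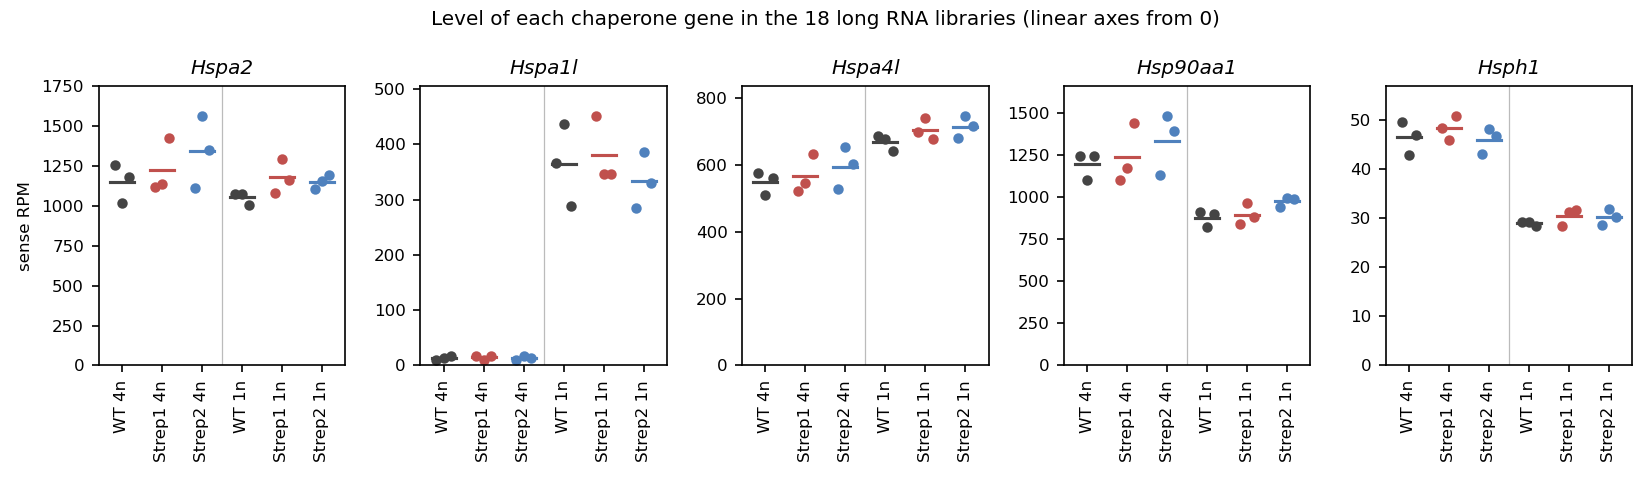
Sense RPM of each of the 5 chaperone genes in the 18 long RNA libraries, with 1 point per library, grouped by genotype and population, and a bar at each group's mean (n = 3). Hspa1l lies at 10.1 to 17.8 RPM in 4n and at 286 to 451 RPM in 1n libraries, and Hsp90aa1 and Hsph1 lie lower in all 1n than in all 4n libraries.

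Hspa2, the HSP70 of meiosis, was present in both populations and differed little between them. It lies at chr12:76450151-76453712 on the plus strand. In 4n cells it stood at 1254, 1017 and 1179 RPM in WT, at 1120, 1137 and 1425 RPM in Strep1 and at 1112, 1564 and 1352 RPM in Strep2. In 1n cells it stood at 1076, 1078 and 1008 RPM in WT, at 1082, 1292 and 1163 RPM in Strep1 and at 1105, 1157 and 1193 RPM in Strep2. The ranges of the populations overlapped, with the second Strep2 4n library highest and the third WT 1n library lowest. The log2 fold change was -0.30 in WT (SE 0.11, limma adjusted p = 0.0169) and -0.29 in Strep2 (SE 0.11, limma adjusted p = 0.0216). In Strep1, within one series, it was -0.18 with a 95% confidence interval of -0.41 to 0.05 (limma adjusted p = 0.134) and did not pass. With libraries scaled over genes alone, a setting chosen after seeing the data, it was -0.35 in Strep1 and passed (limma adjusted p = 0.000561). The WT call was lost with RPM as deposited (log2 fold change -0.12, adjusted p = 0.349) and with scaling by the median of ratios (-0.17, adjusted p = 0.0896), and also without the first WT 4n library (adjusted p = 0.0671). The Strep2 call was lost under both scalings, without the first 1n library (adjusted p = 0.0726), without the second 4n library (adjusted p = 0.151) and with no filter on low values (adjusted p = 0.0741).

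The ratio of Hspa1l to Hspa2, which no scaling of libraries can move, describes the shift between the germ cell HSP70 genes. In Strep1, Hspa1l RPM was 0.269 to 0.417 of Hspa2 RPM in 1n libraries and 0.00892 to 0.0159 in 4n libraries. The mean log2 ratio differed by 4.76, and all 3 spermatid libraries lay above all 3 spermatocyte libraries (exact two-sided permutation test, p = 0.1, the smallest that 3 against 3 libraries can give). The difference was 4.87 in WT and 4.86 in Strep2, each with exact p = 0.1.

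Hsp90aa1, the cytosolic HSP90 form named above, fell in spermatids of every genotype. It lies at chr12:110656842-110669166 on the minus strand. In 4n cells it stood at 1243, 1106 and 1248 RPM in WT, at 1104, 1177 and 1439 RPM in Strep1 and at 1130.1, 1484 and 1394 RPM in Strep2. In 1n cells it stood at 911, 822 and 903 RPM in WT, at 838, 968 and 883 RPM in Strep1 and at 940.5, 997 and 988 RPM in Strep2. The 9 spermatid libraries, which reached at most 997 RPM, all lay under the 9 spermatocyte libraries. The log2 fold change was -0.63 in WT (SE 0.10, limma adjusted p = 1.12e-05), -0.59 in Strep1 (SE 0.10, limma adjusted p = 2.32e-05) and -0.52 in Strep2 (SE 0.10, limma adjusted p = 9.03e-05). Near-identical copies make these levels uncertain. The processed pseudogene Gm12346 matches the Hsp90aa1 transcript at 99.4% of 2208 aligned bases and stood at 17.9% of its level, and Gm5844 matches at 98.5% of 2202 bases and stood at 8.72%. The level of 1n relative to 4n cells was 0.729 for Hsp90aa1 alone and 0.730 for its sum with Gm12346, Gm5844 and Gm5511, both as mean RPM as deposited.

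Hsph1, an HSP110 protein that acts as an exchange factor for HSP70, fell in spermatids of every genotype. It lies at chr5:149537636-149560156 on the minus strand. In 4n cells it stood at 49.5, 42.9 and 46.9 RPM in WT, at 48.4, 45.9 and 50.8 RPM in Strep1 and at 43.1, 48.1 and 46.8 RPM in Strep2. In 1n cells it stood at 29.2, 29.2 and 28.3 RPM in WT, at 28.3, 31.2 and 31.7 RPM in Strep1 and at 28.7, 31.8 and 30.2 RPM in Strep2. No spermatid library reached the lowest spermatocyte library. The log2 fold change was -0.86 in WT (SE 0.08, limma adjusted p = 5.69e-09), -0.80 in Strep1 (SE 0.08, limma adjusted p = 1.68e-08) and -0.68 in Strep2 (SE 0.08, limma adjusted p = 1.59e-07).

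Hspa4l, the other HSP110 member, was higher in 1n than in 4n libraries by RPM, but the size was small and the call was not firm. It lies at chr3:40698643-40750538 on the plus strand. In 4n cells it stood at 575, 509 and 561 RPM in WT, at 521, 545 and 633 RPM in Strep1 and at 528, 653 and 603 RPM in Strep2. In 1n cells it stood at 688, 677 and 640.1 RPM in WT, at 698, 741 and 676 RPM in Strep1 and at 681, 746 and 715 RPM in Strep2. Within each genotype the RPM ranges did not overlap. After scaling, the log2 fold change was 0.11 in WT (95% confidence interval -0.07 to 0.29, limma adjusted p = 0.252), 0.19 in Strep1 (SE 0.09, limma adjusted p = 0.0456) and 0.19 in Strep2 (SE 0.09, limma adjusted p = 0.0473). With libraries scaled over genes alone, which moved the median of all genes in WT from 0.05 to -0.10, it was -0.051 in WT (adjusted p = 0.410), 0.03 in Strep1 (adjusted p = 0.681) and 0.04 in Strep2 (adjusted p = 0.474), while RPM as deposited, with a median of all genes of 0.22, gave 0.29 in WT (adjusted p = 0.00775). The calls in Strep1 and Strep2 were also lost with no filter on low values (adjusted p = 0.312 and 0.262) and, at adjusted p between 0.0714 and 0.206, without any 1 of 4 of the 6 libraries of either line. In Strep2 the call was lost as well when only its own groups were fitted (adjusted p = 0.0862).

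Counted together, 4 of the 5 genes passed in WT, where 82.8% of all tested genes did, 1 higher (all genes 43.2%) and 3 lower (all genes 39.5%) in spermatids. In Strep1 4 of 5 passed (all genes 83%), 2 higher (all genes 44%) and 2 lower (all genes 39%). In Strep2 5 of 5 passed (all genes 83.4%), or 3 with no filter on low values, 2 higher (all genes 43.6%) and 3 lower (all genes 39.8%). The counts were near the share over all genes and are no result about these genes. Among all tested genes, the size of the Hspa1l change in WT stood at percentile 99.4, and those of Hsph1, Hsp90aa1, Hspa2 and Hspa4l at percentiles 36.1, 28.0, 14.7 and 5.40.

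**Figure D2:**
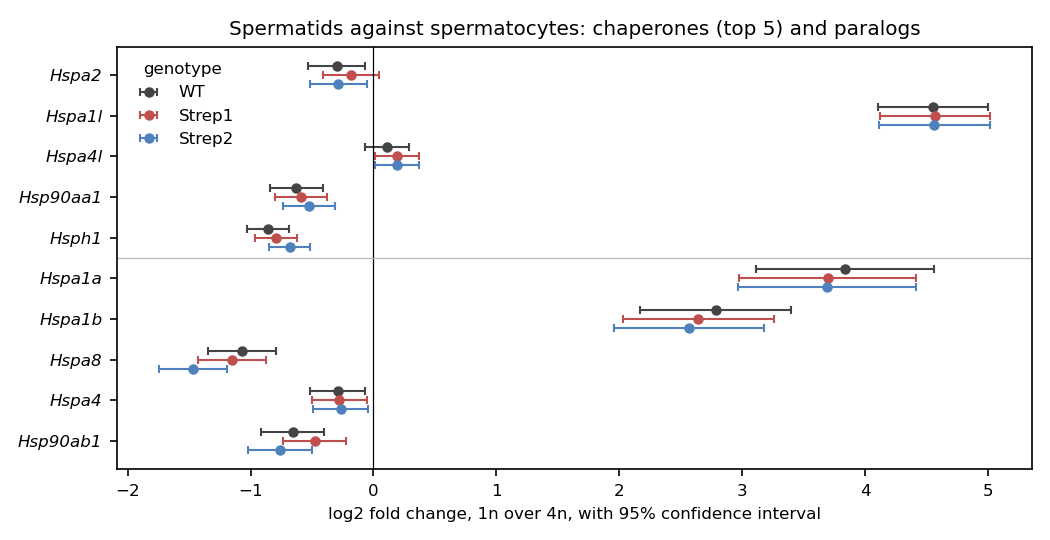
Log2 fold change of 1n over 4n on the scale log2(RPM + 0.1), with 95% confidence intervals, for the 5 chaperone genes and 5 paralogs in WT, Strep1 and Strep2 (3 libraries per group). Hspa1l lies at 4.55 to 4.57, and the intervals of Hsp90aa1 and Hsph1 lie below 0 in the 3 genotypes.

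Divided by exon length, which allows levels of different genes to be compared, the order in spermatids was Hspa2, Hsp90aa1, Hspa1l, Hspa4l and Hsph1, with medians of 321, 198, 140, 53.2 and 2.63 RPM per kilobase over the 9 libraries. The ranges of Hsp90aa1 (178 to 217) and Hspa1l (115 to 182 RPM per kilobase) overlapped slightly, although Hsp90aa1 was the higher in 9 of 9 libraries. The ranges of the other neighbours in the order did not overlap. In spermatocytes the medians were 342 for Hspa2, 270.1 for Hsp90aa1, 43.4 for Hspa4l, 5.30 for Hspa1l and 4.22 RPM per kilobase for Hsph1. Hspa1l and Hsph1 overlapped there, with Hspa1l the higher in 7 of 9 libraries, and so did Hspa2 and Hsp90aa1, with Hspa2 the higher in 9 of 9. These lengths count every annotated exon. With the length of the canonical transcript alone the order of Hspa1l and Hsph1 in spermatocytes turned, at 5.30 and 7.59 RPM per kilobase, and the order in spermatids was the same.

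The genotype comparisons ask whether RNA levels differ between lines in either population. With no strain background given, the tag and other differences between the lines cannot be told apart. None of the 5 genes was called between a tagged line and WT. In 4n cells 0 of 5 passed in Strep1 (all genes 0.97%) and 0 of 5 in Strep2 (all genes 0.401%), and in 1n cells 0 of 5 passed in Strep1 (all genes 1.35%) and 0 of 5 in Strep2 (all genes 0.11%). No unadjusted limma p of the 5 genes was under 0.05 in any of these comparisons. The intervals show what the data can hold. For Hspa4l the log2 fold changes were between -0.03 and 0.08 and the 95% intervals reached from -0.16 to 0.22, for Hsph1 the intervals reached from -0.25 to 0.23, and for Hspa2 from -0.17 to 0.30. For Hsp90aa1 they reached from -0.20 to 0.29. Hspa1l was the least certain, with log2 fold changes between -0.14 and 0.06 and intervals from -0.58 to 0.49. The smallest adjusted p was that of Hsph1 in Strep2 4n cells, at -0.11 (limma adjusted p = 0.370).

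The direct comparison of the lines and the tests of the difference between populations gave no call either. Between Strep1 and Strep2, 0 of 5 passed in 1n (all genes 1.36%) and 0 of 5 in 4n cells (all genes 1.02%), with log2 fold changes from -0.12 for Hsp90aa1 to 0.19 for Hspa1l. The change from 4n to 1n cells differed between Strep1 and WT by 0.02 for Hspa1l (95% interval -0.62 to 0.65) and by at most 0.12, for Hspa2, with 0 of 5 passing (all genes 0.193%). Between Strep2 and WT it differed by at most 0.18, for Hsph1, with 0 of 5 passing (all genes 0.0438%). Both lines were compared with the same WT libraries, and in 1n cells Strep1 differs from WT and Strep2 in library series, so line and series cannot be told apart there. In the authors' deposited table for each line and population, from a Salmon-based signal, the 20 log2 fold changes of the 5 genes lay between -0.08 and 0.09, and the smallest adjusted p was 0.515. The sizes may not compare with the limma values. For Hspa1l in Strep2 1n cells the authors gave -0.016 (SE 0.058) with an unadjusted p of 0.286, smaller than that ratio would give. The limma value there was -0.14.

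**Figure D3:**
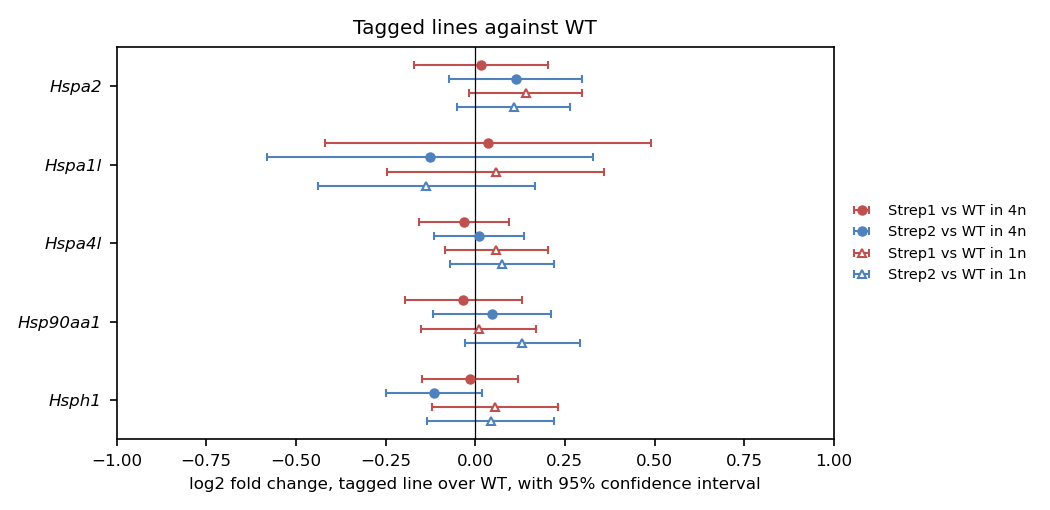
Log2 fold change of each tagged line over WT on the scale log2(RPM + 0.1), with 95% confidence intervals, for the 5 chaperone genes in 4n (filled circles) and 1n cells (open triangles), 3 libraries per group. Every interval holds 0, and the intervals of Hspa1l are the widest, from -0.58 to 0.49.

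Paralogs outside the germ cell set went both ways between populations. Hspa1a, the heat-inducible HSP70 next to Hspa1l, was scarce and higher in spermatids, at 4.49, 7.13 and 3.09 RPM in WT 1n and 0.229, 0.0616 and 0.423 RPM in WT 4n libraries. Its log2 fold change was 3.84 in WT and 3.70 in Strep1 (limma adjusted p = 2.66e-09 and 4.38e-09). The size depends on the pseudocount, and the lowest value over all settings was 2.13 in WT. Hspa1b, its near-identical copy, gave 2.78 in WT and 2.64 in Strep1 (limma adjusted p = 2.65e-08 and 5.43e-08), and reads may be split between the pair. Hspa1b was at most 0.239 RPM in 4n libraries, under the filter of 0.3 RPM. It entered this fit only through 1n libraries, where it is high, so its call is no support for a rise. Its lowest values over all settings were 1.20 in WT and 1.15 in Strep1. Hspa8, the constitutive HSP70 of most cells, fell from 24.8 ± 2.54 RPM in WT 4n to 13.3 ± 0.994 RPM in WT 1n libraries (SD, n = 3), with a log2 fold change of -1.07 (limma adjusted p = 3.24e-07), and fell by 1.15 in Strep1 and by 1.47 in Strep2. Snord14c, Snord14d and Snord14e overlap Hspa8 on the same strand, and their part in its level was not tested. Copies of Hspa8 were not searched for. Hsp90ab1, the constitutive HSP90, fell by 0.66 in WT, by 0.48 in Strep1 and by 0.76 in Strep2 (limma adjusted p = 5.94e-05, 0.00139 and 1.02e-05). Hspa4, the constitutive HSP110 relative of Hspa4l, was at -0.29, -0.28 and -0.27 (limma adjusted p = 0.0168, 0.0210 and 0.0263), and these calls were lost with RPM as deposited (adjusted p = 0.370, 0.226 and 0.131), with median of ratios scaling, and without any of 1, 3 and 4 single libraries in WT, Strep1 and Strep2. In Strep2 the call was also lost with no filter on low values (adjusted p = 0.0680).

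Between genotypes none of these paralogs that could be tested was called in the limma fits, where the shares over all genes were 0.11% to 1.36%. Hspa1b, at most 0.239 RPM in 4n libraries, did not pass the filter there. The authors' deposited table called 2. It called 384 of 14289 genes for Strep2 against WT in 4n and 453 of 20065 for Strep1 against WT in 1n cells. Counts this small are no result about these paralogs. Hspa8 was higher in Strep2 than in WT 4n cells in the authors' deposited table, with a log2 fold change of 0.41 and an adjusted p of 0.00406. The limma fit on RPM gave 0.39 there (adjusted p = 0.166). Hsp90ab1 was higher in Strep1 than in WT 1n cells in the authors' deposited table, at 0.30 with an adjusted p of 0.0270, and the limma fit gave 0.28 (adjusted p = 0.0958). This comparison crosses library series, so line and series cannot be told apart in it. In 4n cells, within one series, the limma fit gave 0.09 for Hsp90ab1 in Strep1 against WT (adjusted p = 0.931).

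The further chaperone machinery was described by 10 lists of 149 genes, of which 141 could be tested between populations. In WT spermatids 52 were higher (all genes 43.2%) and 59 lower (all genes 39.5%), with a median log2 fold change of -0.09 beside 0.05 over all genes. Of the 8 cytosolic HSP70 and HSP110 relatives 4 rose and 4 fell, among them Hspa14, a ribosome-linked HSP70 relative, from 7.64 ± 0.676 to 1.14 ± 0.318 RPM (SD, n = 3 here and below), and Hspa12b, at a log2 fold change of 2.76. Hspa12b was at most 0.237 RPM in 4n libraries and, like Hspa1b, passed the filter only through 1n libraries. Both count among the 4 that rose, and neither call is support for a rise.

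Of 21 HSP90 partner and co-chaperone genes 13 fell (61.9%, all genes 39.5%) and 4 rose (19.0%, all genes 43.2%) in WT, with a median of -0.50. In Strep1, within one series, 13 fell (all genes 39%) and 5 rose (23.8%, all genes 44%). Tomm34, a co-chaperone that binds HSP70 and HSP90, fell from 85.8 ± 9.25 to 3.99 ± 0.591 RPM in WT, which is -4.57 on the log2 scale (limma adjusted p = 4.20e-16). Ppp5c, a protein phosphatase that docks on HSP90, fell from 59.1 ± 6.93 to 9.47 ± 0.492 RPM (-2.80), and Ahsa2, a relative of an activator of the HSP90 ATPase, fell by 2.62 on the log2 scale. Of 14 ER and mitochondrial chaperones 8 fell (57.1%, all genes 39.5%) and 4 rose (28.6%, all genes 43.2%). Hyou1, an HSP110 relative of the ER, fell from 384 ± 41.4 to 71.3 ± 1.60 RPM (-2.60), while the testis forms Calr3, a calreticulin relative, and Pdilt, a protein disulfide isomerase relative, rose by log2 fold changes of 3.88 and 3.70.

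Of 45 J-domain proteins 20 rose (44.4%, all genes 43.2%) and 16 fell (35.6%, all genes 39.5%) in WT, near the shares over all genes, so the counts are no result about this list. Dnajb8 rose from 4.75 ± 0.910 to 108 ± 17.2 RPM, which is 4.30 on the log2 scale (limma adjusted p = 2.79e-13), Dnajc5b, a cysteine string protein relative, from 5.25 ± 1.98 to 82.1 ± 11.3 RPM (3.82) and Dnajb7 from 3.30 ± 0.735 to 47.6 ± 5.78 RPM (3.65). With RPM as deposited 10 J-domain genes fell. Of 11 exchange factors and regulators 6 rose (54.5%, all genes 43.2%) and 4 fell (36.4%, all genes 39.5%), or 2 fell with RPM as deposited, with median of ratios scaling or without the third WT 1n library. Bag5, which acts on HSP70, rose from 203 ± 15.9 to 549 ± 83.7 RPM (1.25), Hspbp1 rose by 0.73, and Grpel2, a mitochondrial exchange factor, fell by 1.86 on the log2 scale.

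For the lists that follow, the shares over all genes in WT were again 43.2% higher and 39.5% lower. Of 10 small heat shock protein genes 6 could be tested, 2 of which rose (4 with no filter on low values) and 1 of which fell (2 with scaling over genes alone or without the second WT 1n library) in WT. Odf1, a crystallin-domain protein of the sperm tail's outer dense fibres, rose from 26.4 ± 9.07 to 565 ± 169 RPM (4.25), Hspb7 rose by 0.72 and Hspb6 fell by 1.24 on the log2 scale. Of 16 CCT chaperonin and prefoldin genes 7 fell (43.8%) and 2 rose (12.5%), and 7 did not pass, with Vbp1 at 3.71, Pfdn4 at -2.71 and Pfdn2 at -2.03. Of 7 tested heat shock factor genes 2 rose (28.6%) and 3 fell (42.9%). Hsf2, a heat shock factor active in the testis, rose from 9.13 ± 1.91 to 96.7 ± 4.15 RPM (3.23, limma adjusted p = 1.99e-13), Hsfy2 rose by a log2 fold change of 3.59, and Hsf2bp, a meiotic recombination protein named for binding HSF2, fell by 0.84. Of 13 tested stress-inducible and immediate early genes 6 rose (46.2%) and 4 fell (30.8%), or 7 fell with scaling over genes alone, with Jun at -3.39 and Fosb at 2.60. Of 8 genes listed as HSPA2 partners in germ cells 5 rose (62.5%) and 1 fell (12.5%), or 2 fell with only the compared groups fitted and 3 with scaling over genes alone. The transition protein genes Tnp2 (5.35) and Tnp1 (5.07) and Spam1 (3.78), the sperm hyaluronidase, had the largest changes of that list, and Tnp1 and Tnp2 are also among the 8 spermatid markers.

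**Figure D4:**
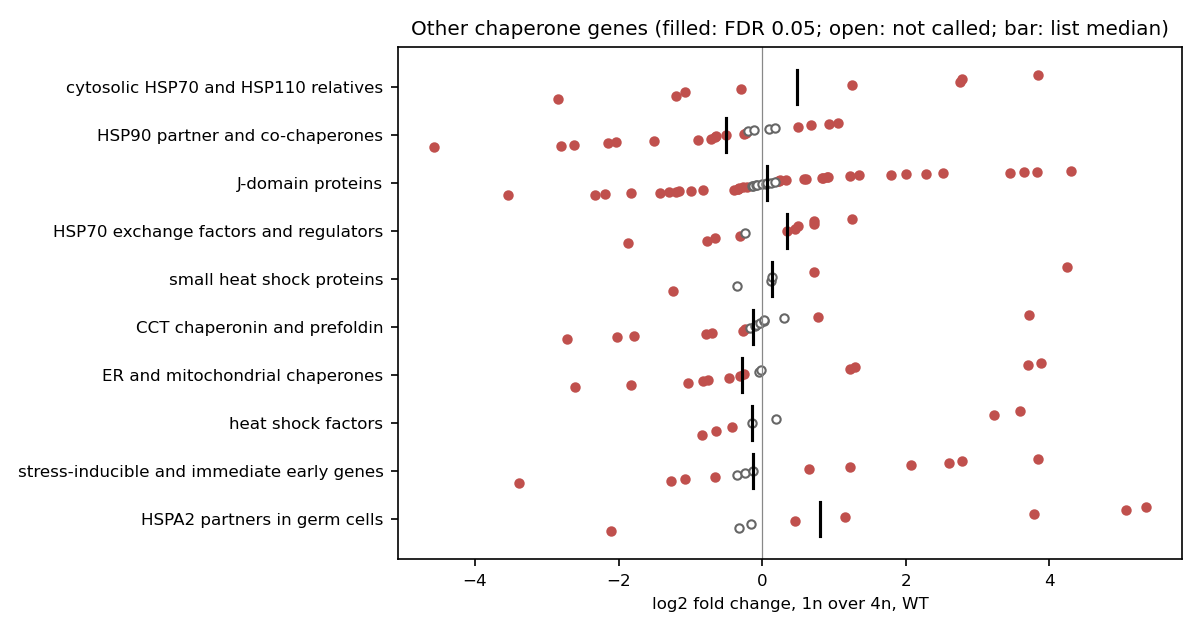
Log2 fold change of 1n over 4n in WT on the scale log2(RPM + 0.1) for each tested gene of 10 chaperone lists (3 libraries per group). Filled points passed at a false discovery rate of 0.05, open points did not, and bars mark list medians, which run from -0.50 for HSP90 partner and co-chaperones to 0.80 for HSPA2 partners.

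No gene of the 10 lists was called between a tagged line and WT in the limma fits. Of the listed genes, 139 could be tested in 1n and 136 in 4n cells. Over all genes, those fits called from 0.11% to 1.35%. Dnajc2, a ribosome-linked J-domain protein, was the only listed gene called between Strep1 and Strep2 1n cells (all genes 1.36%). It was lower in Strep1 (log2 fold change -0.35, limma adjusted p = 0.0236), in a comparison that crosses library series. Between the lines in 4n cells Dnajc2 was at -0.09 (limma adjusted p = 0.860). Counts this small are no result about the lists.

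For each gene the 3 genes with the most similar pattern were taken by the root mean square distance of centred log2 values over the 18 libraries, among 10106 genes with a mean of at least 5 RPM. Those of Hspa1l were Sppl2c, Spatc1 and Spem1, at distances of 0.09, 0.10 and 0.10. Sppl2c, a presenilin-like protease gene of germ cells, stood at 165 ± 31.0 RPM in WT 1n and 7.27 ± 1.79 RPM in WT 4n libraries (SD, n = 3). Those of Hspa2 were Snrpc, Psma4 and Calr (0.04, 0.04 and 0.05), which are genes of splicing, the proteasome and the ER chaperone calreticulin. Those of Hspa4l were Adam32, Prmt7 and Nsun2 (0.04, 0.04 and 0.05), and those of Hsph1 were Pom121, Phrf1 and Snupn (0.05, 0.05 and 0.06). Those of Hsp90aa1 were Gm12346, its pseudogene, at 0.04, then St13, the HSP70 interacting protein that works with HSP90, and AI429214, both at 0.05. Gm12346 is near-identical to Hsp90aa1, so reads may be shared between them and their likeness is no separate result. All libraries are shared by these patterns, and no test was made.

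Antisense RNA over Hsph1 was higher in all spermatid than in all spermatocyte libraries, while the sense strand was lower. It stood at 0.0662, 0.185 and 0.174 RPM in WT 4n and at 1.72, 1.42 and 1.23 RPM in WT 1n libraries. In Strep1 the values were 0.179, 0.0975 and 0.0725 RPM in 4n and 1.21, 1.77 and 1.39 RPM in 1n libraries, and in Strep2 0.109, 0.0377 and 0.0457 RPM in 4n and 1.49, 1.50 and 1.36 RPM in 1n libraries. The lowest spermatid library lay well above the highest spermatocyte library in each genotype. The antisense share of all Hsph1 RNA was 4.10% to 5.58% in 1n and 0.0783% to 0.429% in 4n libraries. The long noncoding gene Gm20005 overlaps an end of Hsph1 on the other strand and stood at 0.211 to 0.486 RPM in 1n and at 0.394 to 1.05 RPM in 4n libraries, with ranges that overlapped. Another such gene, Gm73411, was not among the genes measured, so no level could be given. Antisense RNA over Hsp90aa1 was 10.5 to 17.7 RPM in 1n and 6.78 to 10.6 RPM in 4n libraries, with ranges that overlapped slightly. The near-identical copies of Hsp90aa1 make these levels uncertain too. Antisense RNA over Hspa2 was 1.32 to 3.69 RPM in 1n and 1.58 to 3.18 RPM in 4n libraries and overlapped. That over Hspa4l, at 0.246 to 0.814 and 0.210 to 0.518 RPM, overlapped as well. For Hspa1l it was 0.394 to 0.847 RPM in 1n and 0.161 to 0.457 RPM in 4n libraries, or 0.102% to 0.256% and 1.20% to 2.61% of its RNA. Long noncoding genes on the other strand also overlap exons of Hspa2, Hspa1l and Hsp90aa1. That of Hspa2, 4930426I24Rik, stood at 2.15 to 3.46 RPM in 1n and at 5.49 to 8.58 RPM in 4n libraries. That of Hspa1l, Gm10501, stood at 0.319 to 0.848 and 0.222 to 0.523 RPM. That of Hsp90aa1, Gm53768, was not among the genes measured. Antisense values were described and not tested.

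MIWI-bound small RNA held sense sequences of all 5 genes and few antisense ones. Sense small RNA of Hspa2 stood at 24.4, 9.06, 6.18, 10.5 and 22.1 RPM in the 5 libraries and antisense was listed at 0 in each. Hspa1l stood at 22.9, 8.67, 4.15, 8.21 and 23.4 RPM and Hsp90aa1 at 19.9, 9.76, 12.4, 7.43 and 15.7 RPM. Hspa4l had 6.89 to 16.5 RPM with a median of 9.97, and Hsph1 0.819 to 2.25 RPM with a median of 1.13. Libraries 1 and 5 were highest for Hspa2, Hspa1l, Hspa4l and Hsp90aa1. By its name, library 1 belongs to another series than the rest, library 5 among them. These libraries also had the highest sums of sense small RNA over all protein-coding genes, 37515 and 33398 RPM against 21056 to 24549 RPM in the other 3. Their sums over the listed pachytene piRNA clusters were the lowest, 554286 and 580286 RPM against 641234 to 652029 RPM. By median level, Hsp90aa1 stood at percentile 98.9 of 21834 coding genes, Hspa2 at 98.6, Hspa4l at 98.4, Hspa1l at 98.1 and Hsph1 at 82.4. These percentiles do not take the level of each transcript into account. The highest antisense value was 0.277 RPM for Hsp90aa1, and none of the 5 genes overlaps a listed pachytene cluster. Near-identical copies such as Gm12346 make the small RNA levels of Hsp90aa1 uncertain on either strand. The labels hold no control library for this purification, so no enrichment over unbound RNA could be given.

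**Figure D5:**
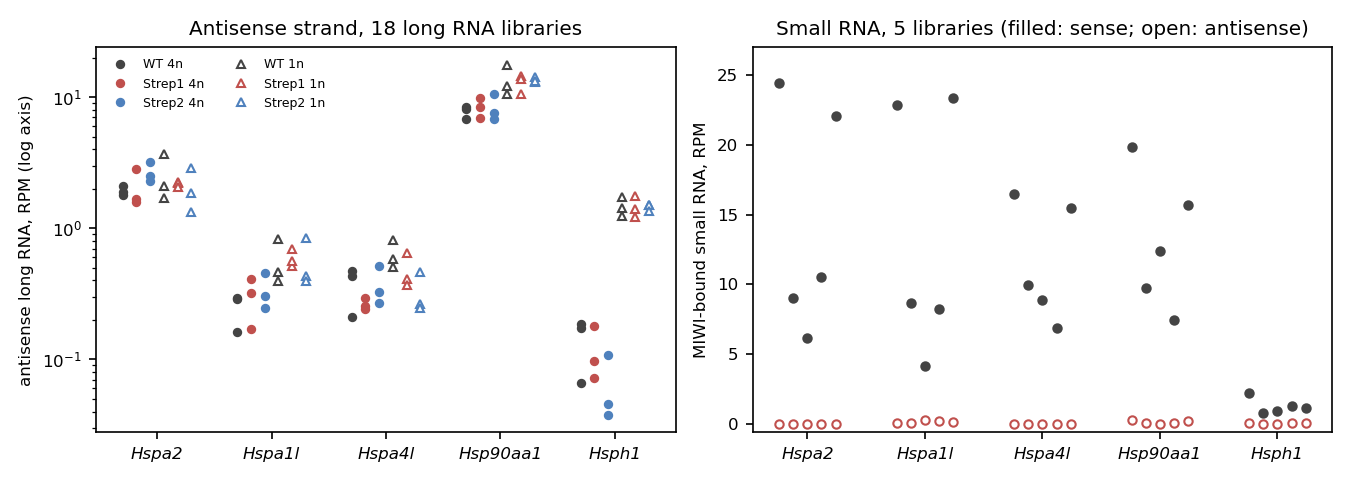
Left, antisense long RNA of each gene in the 18 long RNA libraries (RPM, log axis, circles for 4n and triangles for 1n). Right, sense (filled) and antisense (open) small RNA bound to MIWI in 5 Strep1 testis libraries (RPM), where Hspa2 reaches 24.4 RPM sense and 0 antisense.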

How the data were processed

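Long RNA of 18 libraries (6 groups of 3) and MIWI-bound small RNA of 5 were deposited by the authors as RPM per strand, with a denominator not given in the sources used here. The submitters' processing notes name Salmon 1.3.0, STAR, Bowtie, featureCounts, DESeq2, DESeq and cutadapt, without roles, and the build GRCm39. The authors also deposited a Salmon-based normalized signal with their log2 fold changes, p-values and adjusted p-values. Groups came from titles and genotype labels. The small RNA tables held 4 columns of no labelled sample, which were not used, nor was the slicing assay table.

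RPM was tested with limma 3.58.1 in R 4.3.3 on log2(RPM + 0.1), keeping features that reached 0.3 RPM in 3 or more libraries. Libraries were scaled over all features by the trimmed mean of their log ratios (30% of ratios and 5% of levels trimmed), with Benjamini-Hochberg adjustment over all genes at a false discovery rate of 0.05. All 18 libraries were fitted for 1n against 4n cells and for differences between populations, and the 9 of a population for genotypes. All 5 genes passed the filter in every fit. Fold changes of low genes are understated. The alternatives were other pseudocounts, filters, scalings and fits, a replicate block and leaving out each library. Scaling over genes alone was chosen after seeing the data. The genes and lists were chosen with earlier results of these data known. From each list the 3 called genes of largest change in WT with a mean of at least 1 RPM were named, and paralogs always.

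Depth, from the value of 1 read, was 33.0 to 63.2 M reads for long RNA and 12.0 to 20.8 M for small RNA. Only 39.6% to 44.3% of nonzero gene values were within 0.01 of whole reads, so no count test was run. Replicate numbers were checked for pairing by correlating deviations from group means. Of 15 pairs of groups only WT with Strep2 in 1n cells had all 3 correlations over 0.1 (0.127 to 0.240). Transcripts were compared by BLAST 2.17.0 for copies of at least 90% identity over 300 bases.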

Additional observations from a re-analysis of the deposited data

How the results depend on the processing

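Over all alternatives run, Hspa1l rose and Hsp90aa1 and Hsph1 fell in the 3 genotypes with the calls kept, and no tagged line had a called gene among the 5. Leaving out single libraries gave log2 fold changes of 4.31 to 4.75 for Hspa1l, -0.66 to -0.44 for Hsp90aa1 and -0.88 to -0.64 for Hsph1. The calls of Hspa2 and Hspa4l depended on scaling, filter and single libraries, and Hspa4l in WT turned to -0.051 with scaling over genes alone. The median log2 fold change of all genes in WT was 0.05, 0.22 with RPM as deposited, 0.17 with median of ratios and -0.10 with scaling over genes alone. The cause of these changes was not tested. Of the 5 genes, 3 were called in Strep2 between populations with no filter, and leaving out single libraries gave 3 to 4 in WT and Strep1 and 4 in Strep2.

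The replicate block gave 4, 4 and 5 called genes of the 5 in WT, Strep1 and Strep2 and 0 in each genotype comparison, as without it, and changed no call of the 5 genes. It gave 298 called genes of all genes for Strep1 against WT and 23 for Strep2 against WT in 1n cells. For the Hspa1l to Hspa2 ratio in Strep1 the paired sign flips gave p = 0.25, the smallest exact value for 3 pairs.

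Counts over all genes were less stable. The 44 genes whose change between populations differed between Strep1 and WT became 80 and 86 with pseudocounts of 0.5 and 1 and 29 with only the compared groups. For Strep2 the 10 such genes became 16 with scaling over genes alone. Strep2 against WT in 4n cells gave 74 calls, 17 with no filter, 33 with RPM as deposited, 197 with only the compared groups and 23 with limma on the authors' signal, and in 1n cells 23, or 13 with no filter. Strep1 against WT in 4n cells gave 179, or 117 on the authors' signal. Leaving out single libraries gave 165 to 417 calls for Strep1 against WT and 11 to 22 for Strep2 against WT in 1n cells, 186 to 305 between the lines in 1n and 124 to 266 in 4n cells, 14 to 27 for Strep2 against WT in 4n cells, and 32 to 65 and 6 to 12 for the differences between populations in Strep1 and Strep2. Where 1 library of a group of 3 is left out, the other 2 are taken to vary like the other groups. Levels near 0.1 RPM, such as Hspa1a and antisense Hsph1 in 4n cells, rest on few reads.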

Other observations

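Hspa1l lies in the major histocompatibility region of chromosome 17. Some genes near it differed between Strep1 and the other genotypes, while most, Hspa1l among them, did not pass. In 1n cells this comparison crosses library series, and in 4n cells it does not. The distance of 1 Mb was chosen after results of these data were known. Of 85 tested genes within 1 Mb of Hspa1l, 11 were called between Strep1 and WT in 4n cells (12.9%, all genes 0.97%), all 11 higher in Strep1, and of 89 in 1n cells 10 were called (11.2%, all genes 1.35%), 8 higher and 2 lower. Against Strep2, 9 of 85 (10.6%, all genes 1.02%) were called in 4n and 11 of 89 (12.4%, all genes 1.36%) in 1n cells. H2-Ab1, a class II antigen-presenting gene, was higher in Strep1 than WT by log2 fold changes of 3.68 in 4n (limma adjusted p = 1.55e-07) and 3.12 in 1n cells (limma adjusted p = 2.87e-09), and H2-D1 and H2-Q4, class I genes, by 2.83 and 2.14 in 4n cells (limma adjusted p = 0.000111 and 0.000863). Genes of the H2 family share sequence, so reads may be split among them and their levels are uncertain. The nearest called genes were Clic1, at 68.6 kb, in 1n (0.78) and Dxo, at 133 kb, in 4n cells (0.62), both higher in Strep1 than in WT. Hspa1l stood at 0.06 in 1n (limma adjusted p = 0.885) and 0.04 in 4n cells (limma adjusted p = 0.988) in the same comparisons.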
